A study of Mus musculus with 2 samples.

Results

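The interferon response genes described here were 9 genes that mark interferon signalling in tissue: Stat2, Irf1, Irf7, Irf9, Isg15, Ifit1, Ifit2, Ifit3 and Ifi27. They were chosen by gene name from a table of 37146 genes. The files carried 8 of the 9 under these names. The ninth, Ifi27, was matched by its Ensembl gene identifier, which the files pair with the older name Ifi27l1. The data were RNA-seq libraries of whole liver from CD-1 mice, an outbred laboratory strain. The Control library came from mice treated with PBS. The NP library came from mice treated with TiO2 NPs (titanium dioxide nanoparticles), given orally at 50 mg per kg body weight per day after the suspension had been stirred with ultrasound for 30 min. Age, sex, length of treatment and the number of mice behind each library were not given in the labels. Each group had 1 library, so no difference had a replicate check and no test was possible; all values describe these 2 libraries. Because the tissue was whole liver, fewer cells of a type and less RNA per cell cannot be told apart.

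Type I interferons bind the receptor pair IFNAR1 and IFNAR2, whose kinases JAK1 and TYK2 phosphorylate STAT2. STAT2 and IRF9 are subunits of the complex ISGF3, which binds a DNA element called ISRE in the promoters of interferon-stimulated genes. Interferon gamma acts through another element, GAS, and IRF1 is among its classical early targets. In liver, hepatocytes and resident macrophages both respond to interferon.

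Both elements were looked for in the promoters of the genes. The RefSeq promoter table used here (GRCm38.p6) was matched for 8 of the genes, in 11 windows, and the 250 bases before each start site were searched on both strands. The ISRE core was searched as GAAANNGAAA and was found in 1 window each of Isg15, Ifit1, Ifit3 and Stat2. Of 32851 promoter windows of that length, 2.98% held it. The GAS letters TTCNNNGAA were found in 1 window each of Irf1 and Ifit2, against 7.02% of all windows. Isg15 had 3 overlapping ISRE matches, between 78 and 57 bases before its start. Ifit1 and Ifit3 each had 2 and Stat2 had 1, all on the opposite strand to the gene. A match is a string of letters and not evidence of binding in these livers. The windows below, in the GRCm38.p6 build, are those that hold a match, apart from the Ifit2 window with a GAS match, which is not shown. They run 5′ to 3′ on the gene's strand, and capitals mark the ISRE letters, or for Irf1 the GAS letters.
Isg15, chr4:156200819-156201068, minus strand: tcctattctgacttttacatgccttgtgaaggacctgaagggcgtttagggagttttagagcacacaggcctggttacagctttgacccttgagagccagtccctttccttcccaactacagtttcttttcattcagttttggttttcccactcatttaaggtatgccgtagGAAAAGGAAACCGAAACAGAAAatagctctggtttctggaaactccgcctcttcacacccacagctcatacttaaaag
Ifit1, chr19:34640639-34640888, plus strand: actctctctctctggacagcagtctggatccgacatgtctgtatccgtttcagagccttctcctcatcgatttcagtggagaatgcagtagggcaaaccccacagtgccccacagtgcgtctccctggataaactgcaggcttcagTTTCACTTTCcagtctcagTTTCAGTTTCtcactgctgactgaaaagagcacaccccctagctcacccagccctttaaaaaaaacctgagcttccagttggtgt
Ifit3, chr19:34583279-34583528, plus strand: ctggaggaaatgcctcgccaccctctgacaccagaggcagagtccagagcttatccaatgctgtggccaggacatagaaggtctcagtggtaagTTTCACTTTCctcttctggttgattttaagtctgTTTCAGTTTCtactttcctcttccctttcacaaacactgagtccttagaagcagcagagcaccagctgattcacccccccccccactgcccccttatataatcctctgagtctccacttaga
Stat2, chr10:128270248-128270497, plus strand: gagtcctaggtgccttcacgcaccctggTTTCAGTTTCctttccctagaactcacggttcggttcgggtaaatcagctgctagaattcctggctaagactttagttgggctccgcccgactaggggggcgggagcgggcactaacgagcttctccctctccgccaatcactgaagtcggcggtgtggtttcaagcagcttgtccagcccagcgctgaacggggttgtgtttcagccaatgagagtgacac
Irf1, chr11:53769764-53770013, plus strand: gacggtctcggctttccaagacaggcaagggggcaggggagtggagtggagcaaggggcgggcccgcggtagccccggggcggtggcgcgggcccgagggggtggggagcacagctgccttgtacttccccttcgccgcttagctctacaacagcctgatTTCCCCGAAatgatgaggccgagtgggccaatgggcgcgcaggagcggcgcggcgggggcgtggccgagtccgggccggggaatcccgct

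None of the 9 interferon response genes differed between the libraries by 1.5-fold on the log2(FPKM + 1) scale, and the intervals of Control and NP overlapped for all 9. Values were FPKM, which are fragment numbers divided by transcript length and by the library's total of mapped fragments. All rows of a gene were summed. Values in brackets are 95% intervals within 1 library, which hold no spread between animals. Cufflinks estimated them for single rows, and for sums of rows they were combined here from the half-widths of the rows. A gene counted as tested when its mean over both libraries was at least 1 FPKM, and 7 of the 9 were; Ifit1 and Ifit2 lay under it. Of the 10533 genes tested across the series, 3.6% were at least 1.5-fold higher in NP and 5.33% at least 1.5-fold lower. Intervals were separate with NP above for 7.73% of them and with NP below for 9.58%. With shares this small, a count of 0 among so few genes is near the background and sets these genes apart from no others. The log2 ratio of NP to Control, with 1 added to both values, was above 0 for 5 genes and below 0 for 4. Over all genes tested it was above 0 for 4808 and below 0 for 5725. Its median over the 9 was 0.04 and over the 7 that were tested 0.06, and over all genes tested it was -0.03.

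**Figure D1:**
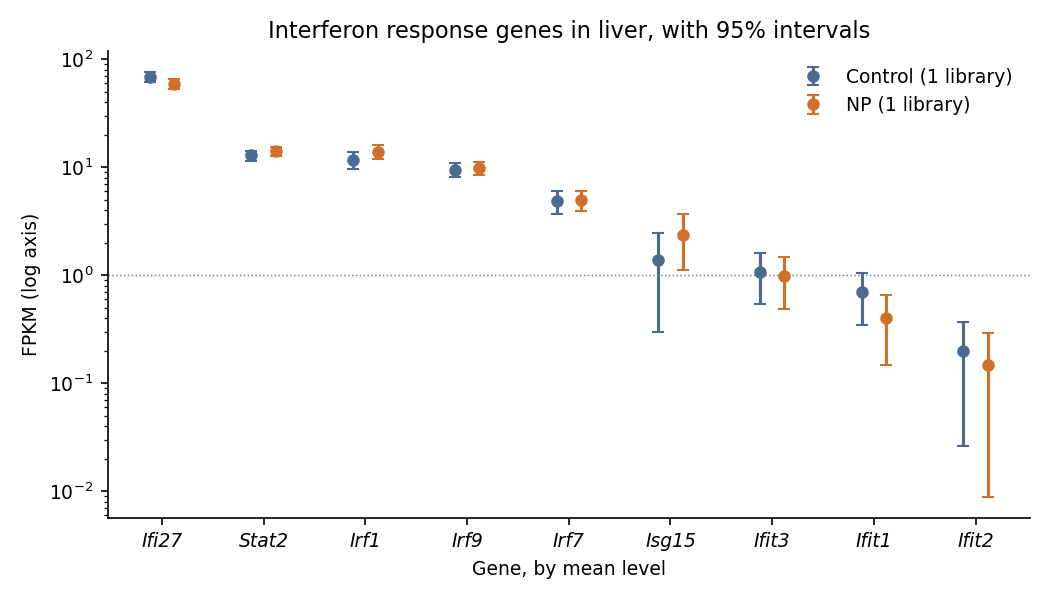
FPKM of the 9 genes on a log axis in the Control and NP libraries (1 library each); bars are 95% intervals within a library and the dotted line is 1 FPKM. Levels fall from Ifi27 at 69.0 and 59.1 FPKM to Ifit2 at 0.198 and 0.150, and the intervals of the libraries overlap for every gene.

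Both ISGF3 subunits among the 9 genes were at moderate levels. Stat2, which encodes the subunit with the activation domain (mm9 chromosome 10, 127707629 to 127729905), was at 12.9 FPKM in Control (11.5 to 14.3) and at 14.0 FPKM in NP (12.7 to 15.4). Irf9, its DNA-binding subunit (chromosome 14, 56222408 to 56228867), was at 9.48 FPKM in Control (8.11 to 10.9) and at 9.90 FPKM in NP (8.50 to 11.3). NP was the higher library for both, by less than the width of the intervals. The plain FPKM ratio of NP to Control was 1.09 for Stat2. Dividing opposite ends of the 2 intervals gave an outer range of 0.887 to 1.33 around it. For Irf9 the ratio was 1.04, with an outer range of 0.783 to 1.40. Both ranges lie inside a 1.5-fold difference in either direction. They hold for the sums of rows, without covariance between rows, and single rows of both genes differed by more.

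Of the other interferon regulatory factors, Irf1 lay between Stat2 and Irf9 in level and Irf7 lay below both. Irf1, a transcription factor induced by interferon gamma (chromosome 11, 53583516 to 53591876), was at 11.7 FPKM in Control (9.69 to 13.7) and at 14.0 FPKM in NP (11.9 to 16.1). Irf7, which amplifies the production of type I interferon (chromosome 7, 148448605 to 148452380), was at 4.87 FPKM in Control (3.74 to 6.01) and at 5.02 FPKM in NP (3.93 to 6.11). Irf1 was higher in NP with a ratio of 1.19, and Irf7 was nearly level at 1.03. The outer ranges, 0.866 to 1.66 for Irf1 and 0.654 to 1.63 for Irf7, include a 1.5-fold difference.

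Isg15 and the 3 Ifit genes had the lowest levels of the 9. Isg15, a ubiquitin-like protein that is joined to other proteins after interferon exposure (chromosome 4, 155573533 to 155574927), was at 1.39 FPKM in Control (0.296 to 2.48). In NP it was at 2.39 FPKM (1.12 to 3.67). Its log2 ratio of 0.50 was the highest of the 9 genes and its plain ratio was 1.72, yet the intervals overlapped and the outer range ran from 0.449 to 12.4. By plain FPKM, Isg15 was thus the 1 tested gene of the 9 past 1.5-fold, where 5.29% of all genes tested were past it in this direction. The coverage behind it was 3.54 reads per base in Control and 7.36 in NP, over a transcript of 756 nt. A change of Isg15 by 1.5-fold was not detectable at this depth.

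The Ifit genes encode proteins that recognise viral RNA lacking the marks of the host. They lie in a cluster on chromosome 19, with other genes of the family between Ifit3 and Ifit1. Ifit1 (34715361 to 34724499) was at 0.705 FPKM in Control (0.350 to 1.06) and at 0.403 FPKM in NP (0.148 to 0.661). Ifit2 (34625184 to 34650909) was at 0.198 FPKM in Control (0.0265 to 0.371) and at 0.150 FPKM in NP (0.00896 to 0.291). Ifit3 (34658021 to 34663221) was at 1.08 FPKM in Control (0.539 to 1.62) and at 0.988 FPKM in NP (0.490 to 1.49). Control was the higher library for all 3, with overlapping intervals. By plain FPKM, Ifit1 was 1.75-fold lower in NP, with an outer range of the ratio from 0.139 to 1.89. Among the genes tested, to which Ifit1 does not belong, 7.85% were past 1.5-fold in this direction. The sum of the 3 genes was 1.98 FPKM in Control (1.31 to 2.65) and 1.54 FPKM in NP (0.964 to 2.12). Ifit3b, a close copy of Ifit3 that the files name I830012O16Rik, was at 0.433 FPKM in Control and 0.206 in NP. Because reads can be exchanged between such copies, their sum is the safer value, and it was 1.51 FPKM in Control (0.867 to 2.16) and 1.19 FPKM in NP (0.655 to 1.75). The coverage of the main Ifit2 transcript, 3818 nt long, was 0.450 reads per base in Control and 0.381 in NP, so its level rests on few reads.

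Ifi27 had the highest level of the 9 genes. It encodes a small mitochondrial membrane protein (chromosome 12, 104672421 to 104678449). It was at 69.0 FPKM in Control (61.5 to 76.4) and at 59.1 FPKM in NP (52.7 to 65.5). The log2 ratio was -0.22, and the outer range of the plain ratio, 0.690 to 1.06, lay inside 1.5-fold. Of all genes tested, 90.2% had a lower level in Control and 88.8% in NP. For Isg15 those shares were 5.22% and 17.5%. The neighbouring family members were low: Ifi27l2a was at 0.984 FPKM in Control and 1.17 in NP, and Ifi27l2b at 0.559 and 1.21 FPKM, with overlapping intervals. The span of Ifi27l2b overlaps that of Ifi27l2a, so their levels may not be independent.

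The order of levels was the same in both libraries: Ifi27, Stat2, Irf1, Irf9, Irf7, Isg15, Ifit3, Ifit1 and Ifit2. In Control the interval of Irf1 overlapped those of Stat2 and Irf9, and each of Isg15, Ifit3 and Ifit1 overlapped the next gene in this order. In NP the same neighbours overlapped, except that Irf1 was separate from Irf9. In each library Ifi27 was separate from Stat2, and Irf7 was separate from both of its neighbours. The plot of ratios against mean level places the 9 genes among all genes tested.

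**Figure D2:**
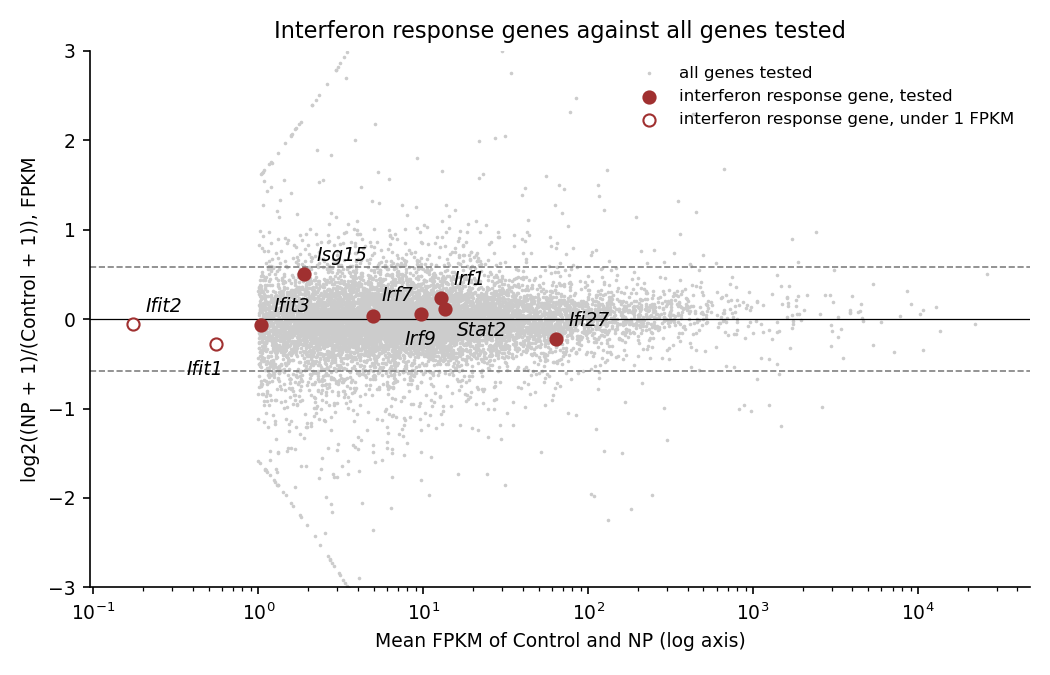
Log2 ratio of NP to Control on FPKM + 1 against mean FPKM on a log axis; grey points are the 10533 genes tested (43 lie beyond 3 and are not drawn), red points the interferon response genes, and dashed lines mark 1.5-fold. All 9 lie between the dashed lines, with Isg15 the highest at 0.50 and Ifit1 the lowest at -0.28.

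Single transcripts of Stat2 differed where the gene did not. The files listed 57 rows for the 9 genes, of which 48 were transcripts and 9 were spans of whole genes that can also take intronic reads. Most rows were at 0, with 15 above it in Control and 16 in NP. The Stat2 transcript of 4394 nt was at 4.43 FPKM in Control (3.54 to 5.31) and at 10.3 FPKM in NP (9.18 to 11.5). The Stat2 transcript of 4403 nt, which covers the same span, was at 7.12 FPKM in Control (6.06 to 8.18) and at 2.58 FPKM in NP (1.91 to 3.24). The intervals of each were separate, in opposite directions, and the shorter transcript went from 34.2% of the gene's FPKM to 73.5%. Transcripts of nearly equal length and the same span can share most of their reads, and the deposited interval of a row does not show how reads were divided between them. The share of single rows with separate intervals was not computed over all genes. Nothing particular to Stat2, or to the rows of Irf9 and Irf1 below, is therefore read from such separations. Taking the Stat2 row with the highest mean level alone gave a log2 ratio of 1.06, against 0.11 for the sum.

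Irf9 and Irf1 also differed in which rows carried their FPKM. All FPKM of Irf9 in Control lay in the transcript of 2459 nt, at 9.48 FPKM, which was at 7.09 (5.89 to 8.30) in NP. The transcript of 2959 nt was listed at 0 in Control but reached 2.81 FPKM (2.09 to 3.53) in NP. Its start overlaps the end of Rnf31, a ubiquitin ligase gene, which was at 8.54 FPKM in Control (7.44 to 9.65) and at 4.86 FPKM in NP (4.10 to 5.63). Whether reads in the shared stretch were assigned differently in the 2 libraries was not tested. With the highest row alone Irf9 had a log2 ratio of -0.37, opposite in sign to 0.06 for the sum. For Irf1, the span row was at 0.733 FPKM (0.526 to 0.940) in Control and was listed at 0 in the NP table. The main Irf1 transcript of 2137 nt was at 6.49 FPKM in Control (4.98 to 7.99) and at 9.41 FPKM in NP (7.78 to 11.0), with overlapping intervals. All FPKM of Irf7 lay in 1 transcript of 1821 nt in both libraries. The end of Phrf1, at position 148448649, overlaps the Irf7 span but not this transcript, which covers 148449088 to 148451946. Phrf1 was at 3.48 FPKM in Control (2.93 to 4.02) and at 5.90 FPKM in NP (4.92 to 6.87). Ifi27 had 2 transcripts above 0, and both were lower in NP with overlapping intervals.

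**Figure D3:**
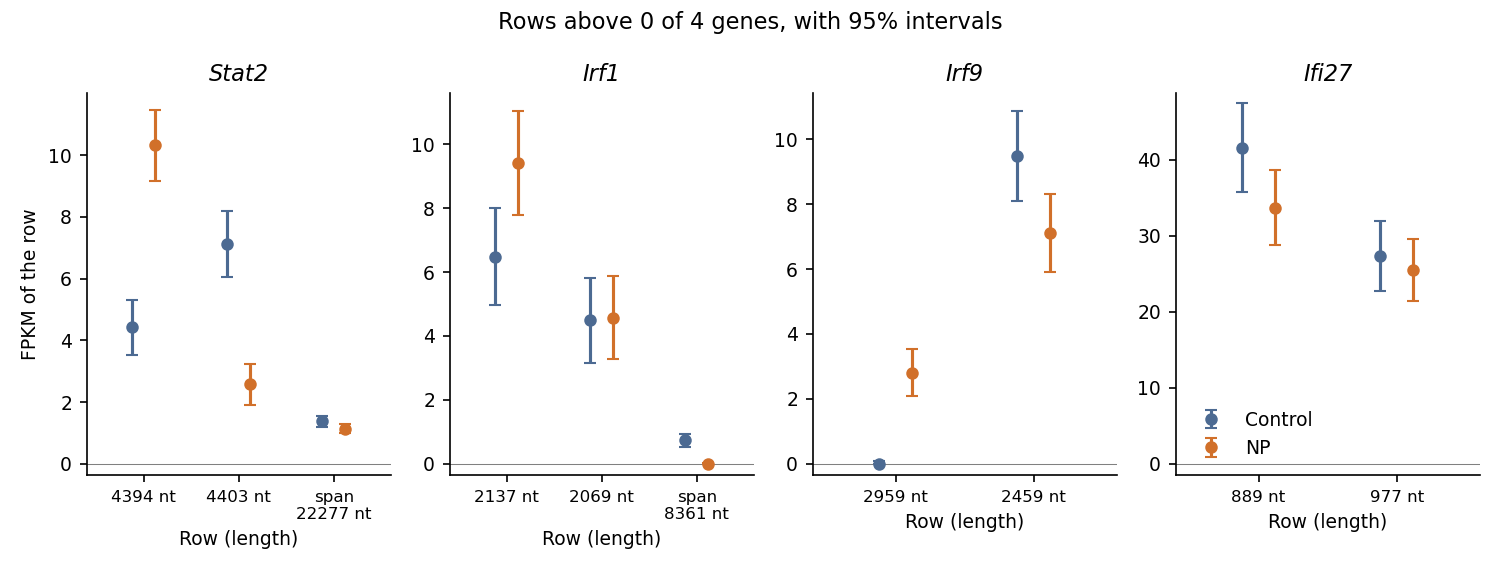
FPKM of each row above 0 in at least 1 library for Stat2, Irf1, Irf9 and Ifi27, labelled by row length, in Control and NP; bars are 95% intervals within a library. The 4394 and 4403 nt rows of Stat2 differ in opposite directions, and the 2959 nt row of Irf9 is at 0 in Control and 2.81 FPKM in NP.

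The type I interferons and interferon gamma were themselves at or near 0. Of 17 such genes in the files, which were looked up after other values were known, 15 were listed at 0 in both libraries. Genes of interferon lambda were not looked up. Ifng, which encodes interferon gamma, was listed at 0 in NP and had 0.0989 FPKM in Control. Ifnz was listed at 0 in Control and had 0.0102 FPKM in NP. An exact 0 in such a table can be a failed estimate, so it is given only as listed.

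The rest of the pathway was read from a list of 92 genes, of which 91 were measured and 1 was not analysed here. Of the 91, 55 passed the filter. Among those 55, 2 were at least 1.5-fold higher in NP and 0 were 1.5-fold lower on the log2(FPKM + 1) scale, and intervals were separate with NP above for 7 and with NP below for 1. Their median log2 ratio was 0.04. These counts lie beside background shares of 3.6%, 5.33%, 7.73% and 9.58% of all genes tested, and nothing particular to the list is read from them. Of the genes under the filter, 7 were listed at 0 in both libraries, and the spans of 4 of those 7 overlap another expressed gene.

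Of 9 genes for receptors and their kinases, 7 passed the filter; Ifnlr1 was at 0.110 and 0.116 FPKM and Il10rb was listed at 0 in both libraries. Ifnar2, a chain of the type I interferon receptor, was at 65.5 FPKM in Control (59.5 to 71.5) and at 76.2 FPKM in NP (69.8 to 82.5). Jak1, which serves all interferon receptors, was at 22.0 and 19.2 FPKM, with overlapping intervals. Jak2, a kinase of the interferon gamma receptor, was at 3.76 FPKM in Control (3.17 to 4.35) and at 2.68 FPKM in NP (2.21 to 3.15), and the NP interval lay wholly below. The other 6 of 7 tested genes in this group had overlapping intervals, and 0 of 7 passed 1.5-fold.

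Among transcription factors, Irf3, which is activated by nucleic acid sensors, was at 39.5 and 40.6 FPKM. Stat3, which carries the signal of IL-6 more than of interferon, was at 19.2 FPKM in Control (17.6 to 20.7) and at 27.4 FPKM in NP (25.5 to 29.3); its span overlaps that of Stat5a. None of the 6 tested genes of this group passed 1.5-fold.

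Among genes of nucleic acid sensing, Zbp1 passed 1.5-fold. Zbp1, a sensor of Z-form nucleic acids, was at 0.502 FPKM in Control (0.175 to 1.12) and at 1.61 FPKM in NP (0.573 to 2.66). Its intervals overlapped, and it passed the filter through the NP library. Ticam1, the adaptor of TLR3 known as TRIF, was named because its intervals were separate, at 4.78 FPKM in Control (3.90 to 5.65) and at 7.16 FPKM in NP (6.13 to 8.18). Mavs, the mitochondrial adaptor of RNA sensing, was at 32.9 and 38.6 FPKM, and the kinase Tbk1 at 11.0 and 9.45 FPKM, with overlapping intervals.

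Antiviral effectors included the most abundant genes of the list. Ifitm2, which blocks entry of viruses through membranes, was at 171 FPKM in Control (157 to 185) and at 224 FPKM in NP (208 to 240). Ifitm3, of the same family, was at 82.7 FPKM in Control (73.8 to 91.6) and at 116 FPKM in NP (105 to 126). Intervals of both were separate, and 0 of 15 tested effectors passed 1.5-fold. Cmpk2, a nucleotide kinase, had the lowest ratio of the group, at 1.30 and 0.932 FPKM with overlapping intervals. Mx1 and Oas genes, standard reporters of interferon exposure, were low: Mx1 was at 0.139 FPKM in Control and 0.391 in NP, and Oas1a at 0.627 and 0.599 FPKM.

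In the ISG15 conjugation group, Ube2l6, the enzyme that transfers ISG15 to its targets, was at 12.4 FPKM in Control (10.3 to 14.6) and at 20.7 FPKM in NP (18.0 to 23.3). Its plain ratio was 1.66, and its intervals were separate. Uba7, which activates ISG15 before this step, was at 1.24 FPKM (0.831 to 1.65) and 1.15 (0.779 to 1.53), and Usp18, which removes ISG15, at 0.353 and 0.618 FPKM. By the plain ratio Isg15 at 1.72 and Usp18 at 1.75 were also past 1.5-fold, with overlapping intervals, and Usp18 lay under the filter. In the other direction Trim30a, also under the filter, was 2.54-fold lower in NP with overlapping intervals. Of the 10 measured list genes of this group, which exclude Isg15, 2 were past 1.5-fold higher by plain FPKM and 1 lower. Over all genes tested those shares were 5.29% and 7.85%, and genes under the filter are not in them. The ubiquitin ligase gene Trim25 was at 12.7 FPKM in Control (11.6 to 13.8) and at 15.7 FPKM in NP (14.5 to 16.9), and Dtx3l, whose span overlaps that of Parp9, was at 10.03 and 8.32 FPKM.

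The GTPases induced by interferon gamma did not pass 1.5-fold in any of 5 tested genes. Iigp1, the most abundant, was at 57.8 FPKM in Control (54.0 to 61.7) and at 52.0 FPKM in NP (48.6 to 55.4). Irgm1 was at 21.8 and 25.9 FPKM and Igtp at 8.20 and 7.26 FPKM, all with overlapping intervals. In the chemokine and feedback group, Cxcl11, a chemokine for T cells, was at 0.944 and 1.13 FPKM, Nmi at 6.37 and 6.08 FPKM and Lgals3bp at 18.5 and 15.9 FPKM. Again 0 of the 7 tested genes of this group passed 1.5-fold and the intervals of all 7 overlapped.

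**Figure D4:**
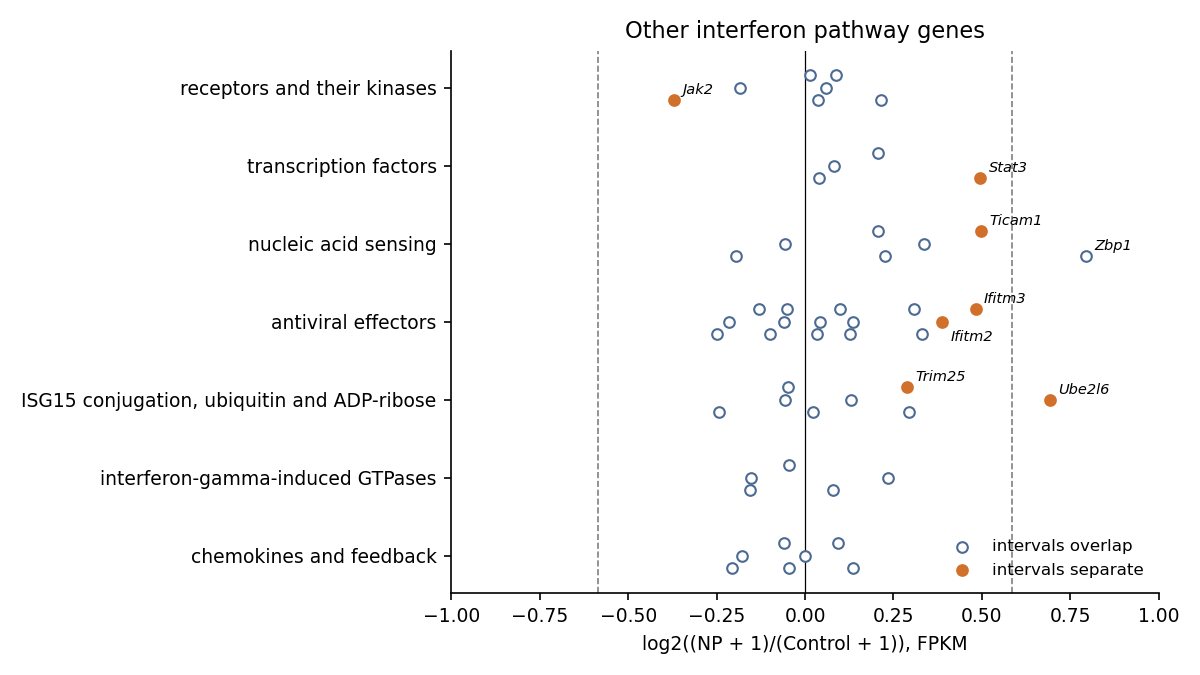
Log2 ratio of NP to Control on FPKM + 1 for 53 of the 55 tested genes of the pathway list, by group; filled points have separate 95% intervals, and dashed lines mark 1.5-fold. Zbp1 at 0.79 and Ube2l6 at 0.69 lie beyond the line, and Jak2 at -0.37 is the only filled point below 0.

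The tissue label and its cell types were read from marker genes. The hepatocyte markers were very high, with Alb, which encodes albumin, at 21659.7 FPKM in Control and 30741.3 in NP. All 5 hepatocyte markers had log2 ratios above 0, 4 of them with separate intervals. Over the 10533 genes tested, 4808 were above 0, and intervals were separate with NP above for 7.73%. That share covers genes of all levels from a mean of 1 FPKM up. In Control the interval of Alb reached 4.14% above its level and that of Tat 4.34%, so small differences separate intervals at such levels. Log2 ratios of all 11 Kupffer cell and macrophage markers were below 0, as were those of 5725 of the 10533 genes tested, and intervals were separate for 2 of the 11. Their summed level was 57.8 FPKM in Control and 36.5 in NP, in which Clec4f, a Kupffer cell lectin, was at 18.4 and 7.63 FPKM. All 7 sinusoidal endothelial markers were also below 0, with separate intervals for 3 and sums of 91.1 and 68.5 FPKM. Over all genes tested, intervals were separate with NP below for 9.58%. Markers of T, B and NK cells summed to 6.24 and 5.01 FPKM over 10 genes and those of neutrophils to 4.54 and 6.03 FPKM over 5, with Mpo listed at 0 in both. Of 5 plasmacytoid dendritic cell markers Ccr9 was listed at 0 in both libraries and Siglech was at 0.306 and 0.139 FPKM. The sum of that list, 98.9 and 104.8 FPKM, lay almost wholly in Bst2, itself an interferon-induced gene, and Ly6d was at 0.390 FPKM in Control (0 to 1.07) and at 4.14 FPKM in NP (2.33 to 5.95). The part of these cell types in the levels of the interferon response genes was not tested. The depth was not given as fragments; 1 FPKM stood for a coverage of 2.29 reads per base in Control and 2.92 in NP, which makes NP deeper by a factor of 1.28.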

How the data were processed

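RNA-seq of mouse liver was deposited as 1 table per library. The authors' values are FPKM with 95% interval bounds for each transcript or gene span, and read coverage, a signal not scaled to library size, per the file headers. The submitters' processing notes name TopHat2 2.1.0, Cufflinks 2.2.1.0 and mm9, with their roles, the strandedness and fragment totals not given in the sources used here. FPKM was summed by gene identifier, and half-widths of rows above 0 were combined in quadrature, without covariance between rows. Genes tested had a mean of at least 1 FPKM, OK status in every row, 1 or more transcripts of at least 300 nt and no small RNA name. Ratios were log2((NP + 1)/(Control + 1)), which shrinks differences of genes near 0, with a size rule of 1.5-fold; plain ratios are of FPKM itself. With 1 library per group no test was made. The arithmetic of the summing and of the size rule was checked on simulated rows of well expressed genes, with exact folds and no noise. That check does not bear on genes of low level or on differences near 1.5-fold. Genes, lists and thresholds were chosen with earlier results of these data known. List genes were named for the highest or lowest ratio or the 2 highest means of their group, or for passing 1.5-fold, apart from items not reported here; Ticam1, Trim25, Mx1, Oas1a, Uba7, Usp18, Ifnlr1, Il10rb, Clec4f, Ifi27l2a and Ifi27l2b were added with their values known. Of the pathway list 89 genes matched by name, 1 by identifier and 1 by an older symbol. Starts were converted to count from 1, and mm9 exon annotation was not used here. Software was Python 3.11.15 (pandas 2.3.3, numpy 2.4.6, matplotlib 3.10.9).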

Additional observations from a re-analysis of the deposited data

How the results depend on the processing

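Of 63 ratios of single interferon response genes recomputed under other settings, 61 stayed within the outer range given by the intervals, with 1 added to their ends. The exceptions were Stat2 at 1.06 and Irf9 at -0.37 with the highest row only. That range is wide for genes of low level, so a ratio inside it says little about them. Of the 63 ratios, 5 passed 1.5-fold in 1 direction or the other. The number of the genes at least 1.5-fold higher in NP, 0 as reported, became 1 with a pseudocount of 0.1, 1 by plain FPKM and 1 with the highest row only, and the number lower stayed at 0 among the genes that passed the filter. Over all 9 measured, 1 gene, Ifit1, was past 1.5-fold lower by plain FPKM and with a pseudocount of 0.1. No interval separation appeared when half-widths were added, when the upper limit of rows at 0 was used, or with transcript rows only. In the pathway list, the 2 higher genes became 4 when both libraries were scaled up to the same larger total. They became 1 with the highest row only, 1 at a mean of at least 5 FPKM and 0 at 2-fold. The 0 lower genes became 1 with the larger total, 2 with the highest row only and 2 without a filter on low values. The sums of the libraries were already nearly equal, at 634417 FPKM in Control and 633272 in NP. Scaling to the larger total thus raised the values of both libraries nearly alike. It weakens the effect of the added 1 and admits more genes past the filter, 63 in place of 55. Rescaling NP to a median ratio of 0 multiplied its FPKM by 1.02, a shift of 0.03 on the log2 scale before 1 is added and less for genes of low level. No paired analysis was possible because each group had 1 library, and for the same reason no library could be left out. Depth limits Isg15 and the Ifit genes. Their outer ranges, and that of Irf7, include differences of 1.5-fold in both directions.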

Other observations

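Some genes of the pathway list lay under the mean of 1 FPKM and differed in level between the libraries; they were named after their values were seen. Cxcl10, a chemokine induced by interferon gamma, was at 1.18 FPKM (0.431 to 1.93) in Control, and NP listed it at 0. Ccl5, a chemokine of T and NK cells, was at 0.301 FPKM in Control (0.0217 to 1.10) and at 1.59 FPKM in NP (0.190 to 2.99), with overlapping intervals. Xaf1, an interferon-induced regulator of cell death, was at 1.12 FPKM in Control (0.709 to 1.53) and at 0.361 FPKM in NP (0.167 to 0.575), with separate intervals. Trim30a was at 0.860 FPKM in Control (0.517 to 1.22) and at 0.338 FPKM in NP (0.118 to 0.574), with overlapping intervals. Of the 91 measured genes of the list without the filter, 3 were at least 1.5-fold higher on the log2(FPKM + 1) scale and 2 lower. No share over all genes was computed without the filter, so nothing particular to the list is read from these counts.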
